A study of Arabidopsis thaliana with 4 samples.

Results

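The plasma membrane intrinsic proteins (PIPs) are the aquaporins of the plant cell surface. Their transcripts were followed here in Arabidopsis thaliana rosettes, with and without a wheat kinase transgene. The genes described are the 10 loci of the PIP1 and PIP2 subgroups chosen by locus number, from PIP1;1 to PIP1;5 plus PIP2;1, PIP2;2, PIP2;6, PIP2;7 and PIP2;8, out of 21500 gene probes on the array. All 10 had a probe, 1 per locus, and all 10 passed the filter on dim spots. The remaining 3 loci of the family, PIP2;3, PIP2;4 and PIP2;5, were also on the array and are given beside them.

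OX17 and OX7 were independent T1 plants, the first transgenic generation, of the Col-0 ecotype, carrying the wheat GSK3/Shaggy-like kinase TaSK5 behind the 35S promoter, a strong viral promoter that is active in most plant tissues. The wild-type plants were untransformed Col-0. All plants were 3 weeks old, were grown on soil at 22 °C and received no treatment. RNA of each transformant was hybridised with wild-type RNA to 2 two-colour arrays with the dyes exchanged, so that each transformant is 1 sample read on 2 arrays and the comparison with wild type has n = 2 transformants. The labels do not say how many wild-type plants were used or whether the same wild-type RNA served both transformants, and the transgene itself was not analysed here.

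PIPs form tetramers in the plasma membrane in which every subunit is a pore for water. PIP2 proteins are efficient water channels, while many PIP1 proteins reach the membrane only in tetramers that also hold PIP2 subunits. Some members also pass hydrogen peroxide or carbon dioxide. In leaves they carry water from the veins to the mesophyll and take part in stomatal movement, and under drought most leaf PIP transcripts decline, PIP1;4 and PIP2;5 being known exceptions. GSK3/Shaggy-like kinases act in brassinosteroid and stress signalling.

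In OX17 the family split. With loess 3 of the 10 were lower than wild type on both arrays and 6 higher, where 33.2% and 31.4% of all genes were. PIP3 (AT4G35100, also PIP2;7), a water channel of the PIP2 subgroup, was 3.01-fold lower than in wild type, and the PIP1 genes PIP1C (AT1G01620, PIP1;3) and PIP1D (AT4G23400, PIP1;5) had mean log2 ratios of -0.80 and -0.58. PIP2B (AT2G37170, PIP2;2), a water channel known mainly from root water uptake, was 1.84-fold higher, and PIP2A (AT3G53420, PIP2;1), PIP1A (AT3G61430, PIP1;1), PIP1B (AT2G45960, PIP1;2) and PIP1E (AT4G00430, PIP1;4) were between 1.42-fold and 1.54-fold higher, although under median centring 1 OX17 array of each of these 4 lay below 0. In OX7 no PIP gene was 1.5-fold away from wild type on both arrays. These folds are means of 2 arrays of 1 plant, and none of the genes passed the test over both transformants.

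The PIP2 subgroup held the widest values. PIP3 had log2 ratios of -1.86 and -1.32 on the OX17 arrays (transformant RNA in Cy5 on array 1 and in Cy3 on array 2), against 0.069 and 0.42 on the OX7 arrays. Both OX17 arrays lay below 0 and both OX7 arrays above it. PIP2B had log2 ratios of 0.66 and 1.09 on the OX17 arrays, against 0.18 and -0.035 on the OX7 arrays. PIP2A, a main leaf and root isoform that also acts in guard cells during stomatal closure, had 0.52 and 0.72 on the OX17 arrays, against 0.28 and -0.23 on the OX7 arrays. For PIP2B and PIP2A the OX17 arrays stood above both OX7 arrays, and the dye-swapped OX7 arrays disagreed in sign. PIP2E (AT2G39010, PIP2;6), an isoform of leaf veins, had 0.058 and 0.16 on the OX17 arrays, against 0.58 and 0.0067 on the OX7 arrays. It was the only one of the 10 above 0 on all 4 arrays, although its transformants overlapped. PIP3B (AT2G16850, PIP2;8) had -0.33 and 0.50 on the OX17 arrays, against -0.11 and 0.25 on the OX7 arrays, so that each pair of arrays disagreed in sign.

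The PIP1 genes also divided. PIP1C had log2 ratios of -0.95 and -0.66 on the OX17 arrays, against -0.23 and 0.24 on the OX7 arrays. PIP1D had -0.76 and -0.41 on the OX17 arrays, against 0.20 and 0.12 on the OX7 arrays. Both genes were lower on each OX17 array than on either OX7 array. PIP1A had 0.47 and 0.68 on the OX17 arrays, against 0.22 and -0.066 on the OX7 arrays. PIP1B, an isoform linked to water and carbon dioxide transport in leaves, had 0.55 and 0.57 on the OX17 arrays, against 0.13 and -0.032 on the OX7 arrays. PIP1E, which also carries hydrogen peroxide during immune responses, had 0.48 and 0.52 on the OX17 arrays, against 0.30 and -0.0056 on the OX7 arrays. For these 3 genes the OX17 arrays lay above 0 and above both OX7 arrays.

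**Figure D1:**
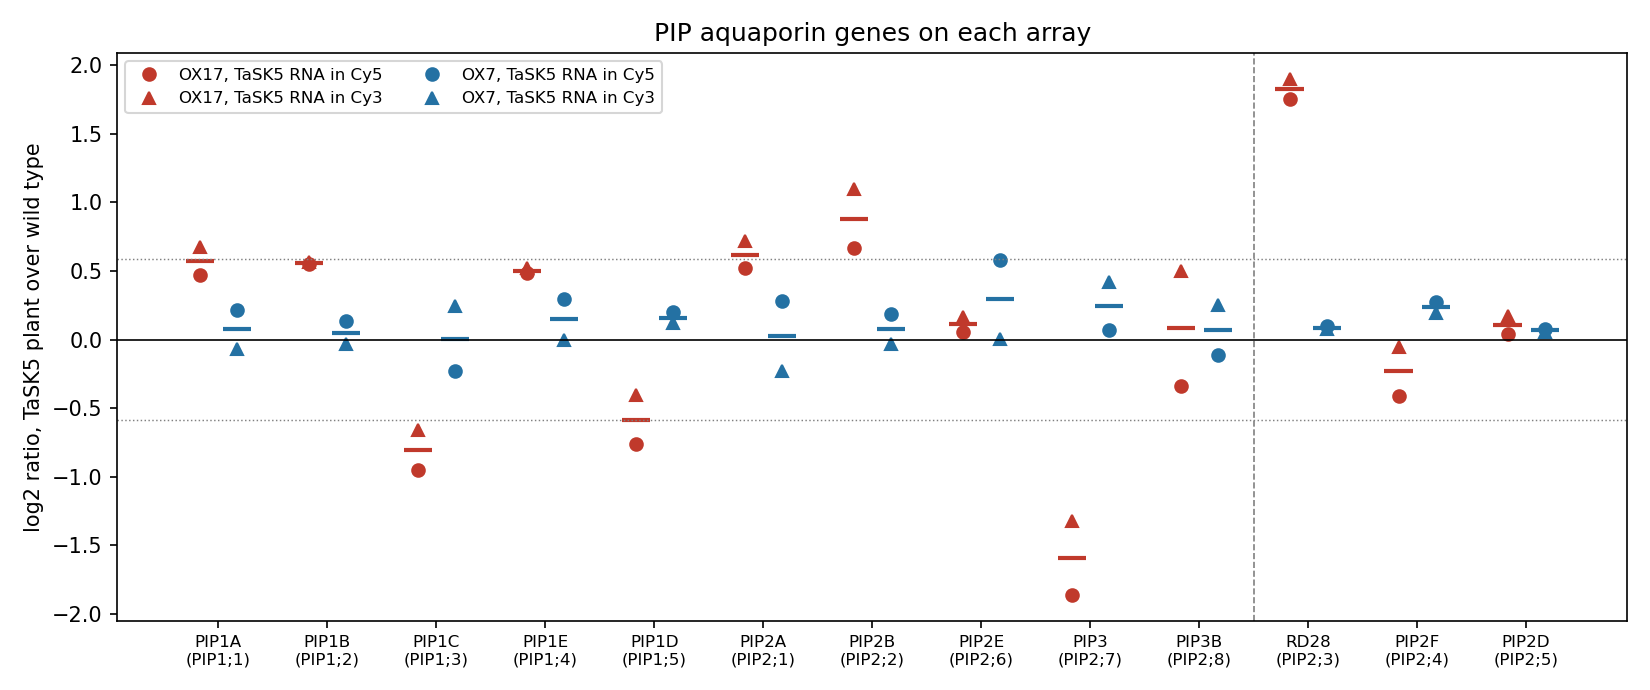
Log2 ratio of TaSK5 plant over wild type for the 10 PIP genes and, right of the dashed line, the remaining 3 PIP loci. Each point is 1 array (circles, transformant RNA in Cy5; triangles, in Cy3), red for OX17 and blue for OX7, bars are the mean of the 2 arrays, and dotted lines mark 1.5-fold. PIP3 on the OX17 arrays lies at -1.86 and -1.32, RD28 at 1.75 and 1.90, and the OX7 points stay between -0.23 and 0.58.

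Of the 3 further loci, RD28 (AT2G37180, PIP2;3), named for its response to desiccation, had log2 ratios of 1.75 and 1.90 on the OX17 arrays, against 0.098 and 0.076 on the OX7 arrays, or 3.55-fold higher in OX17. RD28 and PIP2B carry consecutive locus numbers and are close paralogs. Probe sequences were not used here, and how far each probe also binds the transcript of the neighbouring gene was not tested. PIP2F (AT5G60660, PIP2;4), a mainly root isoform, had -0.41 and -0.053 on the OX17 arrays, against 0.27 and 0.20 on the OX7 arrays. PIP2D (AT3G54820, PIP2;5) had 0.041 and 0.17 on the OX17 arrays, against 0.077 and 0.056 on the OX7 arrays. Its spot was dim, at percentile 8.48 of spot brightness, and with Agilent log ratios its arrays ran from -0.34 to 0.41. PIP1E and PIP2D, the exceptions under drought named above, lay within 1.5-fold of wild type on every array with loess. RD28 lay beyond 1.5-fold on both OX17 arrays. Under median centring PIP1E stood at 0.85 on the OX17 array 1.

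Across both transformants, no PIP gene passed the test against wild type. In the limma fit of the 2 transformant means, the threshold was a Benjamini-Hochberg adjusted p of 0.05. Of the 10 PIP genes, 0 passed as higher and 0 as lower, and over all 18854 genes 0% passed in either direction. Adjusted p-values of the 10 ran from 0.846 to 0.875. At an unadjusted p under 0.05, 0 of the 10 stood out, where 4.38% of all genes did (825 genes, and 1.76% as lower). The mean log2 ratio was -0.67 ± 1.30 for PIP3 (SD, n = 2 transformants) and 0.48 ± 0.57 for PIP2B, the lowest and highest of the 10. It was -0.40 ± 0.57 for PIP1C, -0.21 ± 0.53 for PIP1D, 0.33 ± 0.35 for PIP1A, 0.30 ± 0.36 for PIP1B, 0.32 ± 0.25 for PIP1E and 0.32 ± 0.42 for PIP2A. In 7 of these 8 genes the SD exceeded the mean in size, PIP1E being the exception. PIP2E stood at 0.20 ± 0.13 and RD28 at 0.96 ± 1.23. PIP3B stood at 0.08 ± 0.01, although its arrays disagreed in sign within each transformant. The SD of the 2 transformant means leaves that spread out, so it is no measure of precision for PIP3B.

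The counts of a direction shared by all 4 arrays were near the shares over all genes. On all 4 arrays 1 of the 10 was higher, where 12.4% of all genes were, and 0 were lower, where 12.2% were. Without the OX7 array 2, 6 of the 10 were higher on the other 3 arrays and 1 was lower. The counts over all 4 arrays thus rest on that array. No share over all genes is given for 3 arrays, and leaving out 1 array leaves a dye effect uncancelled. The median log2 ratio over the 10 was 0.31 in OX17 and 0.08 in OX7, against -0.01 and -0.0027 over all genes. With loess all 10 had an OX7 mean above 0, and 3 were higher on both OX7 arrays, where 30.1% of all genes were, 0 were lower on both, where 31% were, and 7 had OX7 arrays of opposite sign. The OX7 direction turned under median centring, where 9 of the 10 means were below 0 and PIP3B alone was above it, 1 gene was higher on both arrays, 4 were lower on both, and the OX7 median was -0.20. Under median centring the brightest 1 percent of all genes had median log2 ratios of -0.07 and -0.41 on the OX7 arrays. The shares over all genes are from loess only. Under the other alternatives that kept all arrays, 0 to 3 of the 10 OX7 means were below 0. The gap between the dye-swapped OX7 arrays reached 0.58 for PIP2E.

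In OX17 alone, 6 of the 10 were higher on both arrays, where 31.4% of all genes were, and 3 were lower on both, where 33.2% were. Under median centring 1 gene, PIP2B, was higher on both and 3 were lower on both. The shares over all genes are from loess only. Of the 3 lower genes 2, PIP3 and PIP1C, were at least 1.5-fold lower on both arrays, where 5.4% of all genes were. PIP2B was at least 1.5-fold higher on both, 1 of 10, where 6.24% were. Under median centring and under scaling between arrays PIP1C and PIP2B missed the 1.5-fold limit on 1 array each, which left 1 gene lower, PIP3, and 0 higher. In OX7, 0 of the 10 were at least 1.5-fold lower on both arrays (0.45% of all genes) and 0 higher (1.48%). These counts describe 1 plant each and carry no test.

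The transformants stood at least 1.5-fold apart in 5 of the 10, and in 2 to 7 under the alternatives that kept all arrays. Taking OX17 minus OX7, and asking for at least 1.5-fold with no overlap of their arrays, 3 of the 10 were lower in OX17 (7.8% of all genes) and 2 were higher (7.58%). The 3 lower ones were PIP3, with a difference of -1.84 on the log2 scale, PIP1C with -0.81 and PIP1D with -0.75. The 2 higher ones were PIP2B with 0.80 and PIP2A with 0.59. Without the size limit, 5 of the 10 were higher in OX17 with no overlap (25.6% of all genes) and 3 lower (25.5%). Among the further loci, RD28 differed by 1.74. PIP3 and PIP1D were lower on both OX17 arrays and higher on both OX7 arrays, 2 of the 10, where 9.33% of all genes were, and 0 had the reverse pattern, where 7.99% did. Under median centring 0 of the 10 had the first pattern, since PIP3 stood at -0.17 on the OX7 array 1 and PIP1D at -0.04 and -0.27 on the OX7 arrays, and 1, PIP2B, had the reverse, as 1 gene did with the authors' log2 ratios. The shares over all genes are from loess only. Each side is 1 plant, so the difference between transformants was not tested. OX17 ratios spread more widely over all genes as well, with an SD across genes of 0.50 in OX17 and 0.24 in OX7.

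A ratio can differ through either channel, and for several PIP genes the wild-type channel differed between the array pairs too. PIP3 had a normalised log2 signal of 10.97 and 11.22 in the OX17 channel, against 12.83 and 12.54 in the wild-type channel of the same arrays. On the OX7 arrays PIP3 had 12.33 and 12.46 in the OX7 channel, against 12.26 and 12.04 in the wild-type channel. The OX17 channel was thus the lowest of the 4 kinds of signal for PIP3. Compared within each dye, the OX17 channel was lower than the OX7 channel by 1.30 on average (differences of -1.35 and -1.24), and the wild-type channel of the OX17 arrays was 0.54 higher than that of the OX7 arrays.

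RD28 divided evenly between the channels. Its log2 signal was 10.64 and 10.89 in OX17, against 8.89 and 8.99 in the paired wild type, and 9.83 and 9.96 in OX7, against 9.74 and 9.89 in the paired wild type. The OX17 channel was 0.87 higher than the OX7 channel, and the wild-type channel of the OX17 arrays differed from that of the OX7 arrays by -0.87.

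For PIP2B and PIP1D the wild-type channels differed more than the transformant channels. PIP2B had a difference of 0.27 between OX17 and OX7 channels and of -0.54 between their wild-type channels. PIP1D had -0.20 between the transformant channels (-0.42 and 0.02 in the separate dyes) and 0.54 between the wild-type channels, and PIP1C had -0.43 and 0.38. With channel medians set equal in place of Aquantile scaling these signs held, at 0.12 and -0.67 for PIP2B, -0.33 and 0.43 for PIP1D, -0.52 and 0.31 for PIP1C, -1.37 and 0.48 for PIP3, and 0.83 and -0.90 for RD28. The same change of scaling turned the sign of the wild-type difference for PIP1A, from 0.47 to -0.30, for PIP1B, from 0.60 to -0.16, and for PIP2E, from 0.45 to -0.15, so no direction is given for those. For PIP2A the change of scaling moved the transformant difference from 0.41 to 0.07 and the wild-type difference from -0.19 to -0.51. Which of its channels differed more thus depended on the scaling. Plant, RNA sample and array differ together between the pairs and cannot be told apart.

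**Figure D2:**
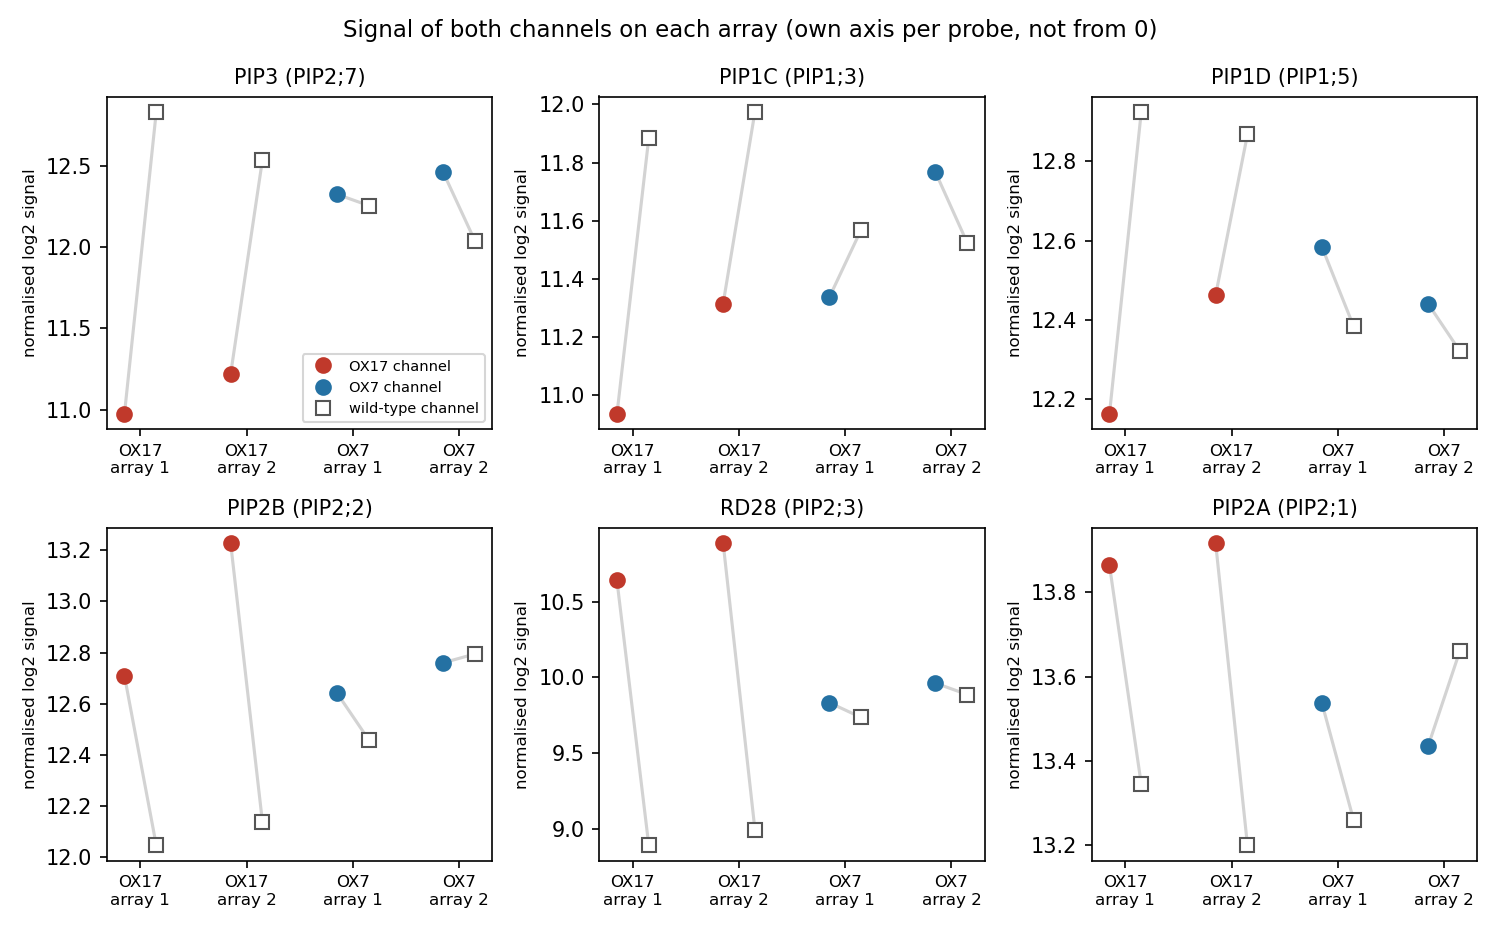
Normalised log2 signal of the transformant channel (filled circles, red for OX17 and blue for OX7) and of the wild-type channel (open squares) on each array for PIP3, PIP1C, PIP1D, PIP2B, RD28 and PIP2A. Each panel has its own axis, which does not start at 0, and levels are not comparable between probes. For RD28 both channels of the OX17 arrays lie apart from those of the OX7 arrays, in opposite directions.

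Most PIP spots were bright, and the way bright spots were normalised bore on the smaller differences. All 10 but PIP3B lay at or above percentile 95.8 of mean spot brightness, PIP1A, PIP1B and PIP2E at 99.7, 99.7 and 99.6, although none was saturated. With each array centred on its median in place of loess, the brightest 1 percent of genes had a median log2 ratio of -1.09 on the OX17 array 2, against -0.18 with loess. Under median centring the OX17 array 2 turned to -0.26 for PIP1A, -0.40 for PIP1B, -0.21 for PIP1E -0.08 for PIP2A and -0.72 for PIP2E, and the higher values of these 5 genes in OX17 were no longer shared by both arrays. PIP3, PIP1C and PIP1D stayed lower and PIP2B and RD28 higher on both OX17 arrays under each of 10 alternatives that kept all arrays. Among these, the changes of filter and of saturated or flagged spots left every PIP ratio as it was. No PIP spot was filtered, saturated or flagged, so those settings could not move the values. Over those, the OX17 mean ran from -1.70 to -1.19 for PIP3, from -0.90 to -0.60 for PIP1C, from -0.76 to -0.44 for PIP1D, from 0.65 to 0.91 for PIP2B and from 1.36 to 1.98 for RD28.

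**Figure D3:**
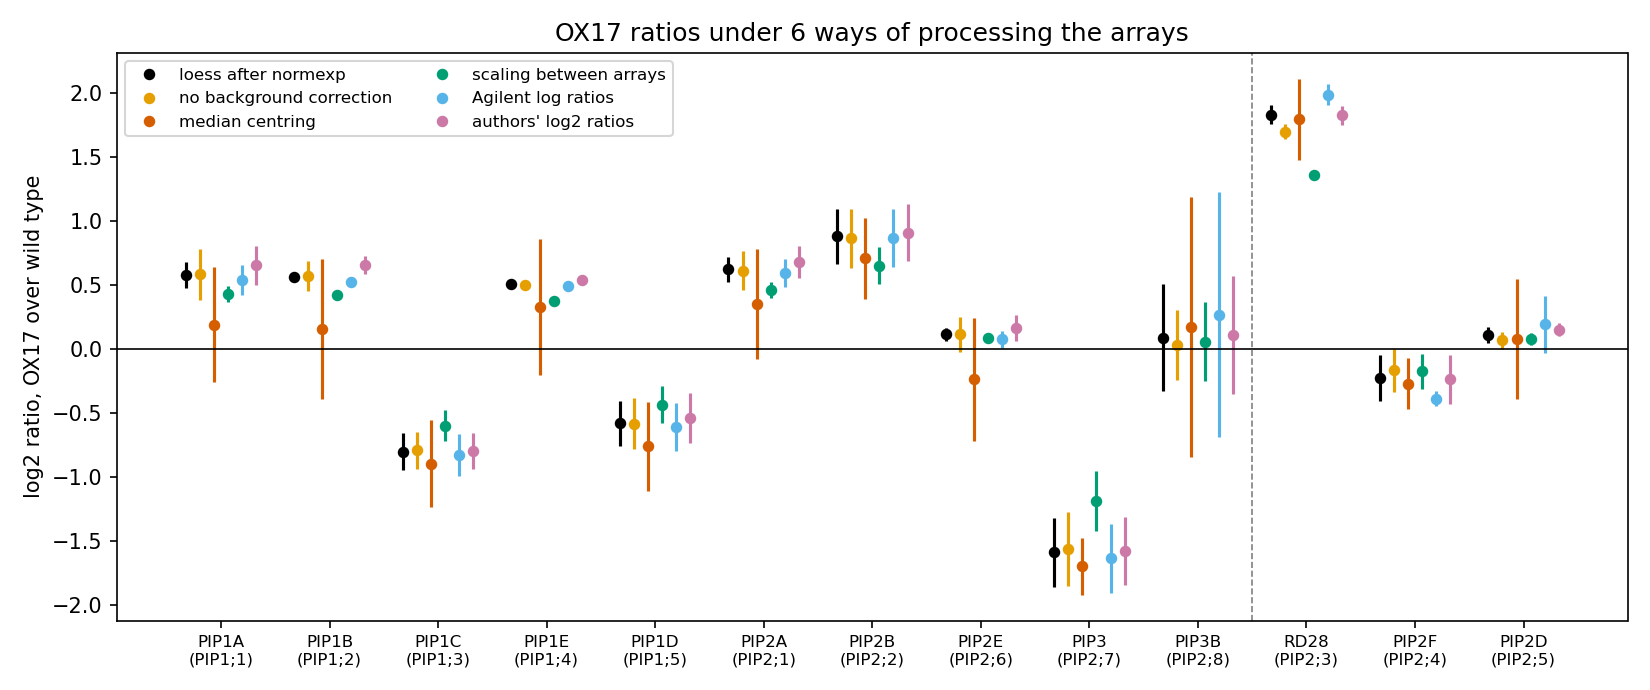
OX17 over wild type for each PIP gene under 6 ways of processing the arrays. Points are the mean of the 2 OX17 arrays and lines run between the arrays. Under median centring the lines of PIP1A, PIP1B, PIP1E, PIP2A and PIP2E reach below 0, while PIP3 stays at -0.95 or lower and PIP2B at 0.39 or higher under all 6.

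The genes whose 4 log2 ratios lay nearest to those of PIP3, by Euclidean distance, were AT3G56370 (0.20), the auxin efflux carrier gene PIN7 (0.26) and AT2G27080 (0.26). Nearest to PIP2B were GAMMA-TIP (AT2G36830), a vacuolar aquaporin (0.16), GSTF8, a glutathione transferase gene (0.17), and AT1G21380 (0.17). Within a distance of 1 there were 305 genes around PIP3 and 3218 around PIP2B.

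The other aquaporin-like subfamilies, tonoplast (TIP), NOD26-like (NIP) and small basic (SIP) intrinsic proteins, were taken as lists of 10, 9 and 3 genes, and 0 members passed the limma test. Their median log2 ratios were -0.06 over 10 TIP genes, 0.01 over 8 NIP genes that passed the filter and -0.05 over 3 SIP genes, against 0.25 over the 10 PIP genes and -0.0052 over all genes. Under median centring the median over the 10 PIP genes was -0.032, and the medians of the other lists are given for loess only. All 10 PIP spots but PIP3B lay at or above brightness percentile 95.8, and the lists were not matched for brightness. Above wild type on every array were 0 TIP, 1 NIP and 0 SIP genes that passed the filter (12.4% of all genes). Below wild type on every array were 0 of them (12.2% of all genes). The vacuolar water channel DELTA-TIP had log2 ratios of -4.18 and -3.75 on the OX17 arrays, against 0.60 and 0.87 on the OX7 arrays. TIP2;2 had 0.96 and 1.56 on the OX17 arrays, against -0.28 and -0.15 on the OX7 arrays, and GAMMA-TIP 0.61 and 0.94, against 0.19 and -0.048. TIP4;1, the second lowest TIP gene, had a mean of -0.17 ± 0.18. NIP and SIP genes had means from -0.21 for NIP6;1 and -0.10 for NIP7;1 to 0.15 for NIP1;2 and 0.19 for NIP5;1, a boric acid channel, and with -0.10 for SIP1;2, -0.05 for SIP2;1 and 0.13 for SIP1A. The OX17 ratios of DELTA-TIP and TIP2;2 thus lay far to either side of 0, as those of PIP3 and RD28 did. DELTA-TIP and TIP2;2 were named as extremes of their list, and the OX17 median over the 10 TIP genes was -0.04. Here too the wild-type channels differed between the array pairs. Taking OX17 arrays minus OX7 arrays, TIP2;2 differed by 0.34 in the transformant channel and by -1.14 in the wild-type channel. The same differences were 0.15 and -0.55 for GAMMA-TIP, and -3.17 and 1.54 for DELTA-TIP.

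**Figure D4:**
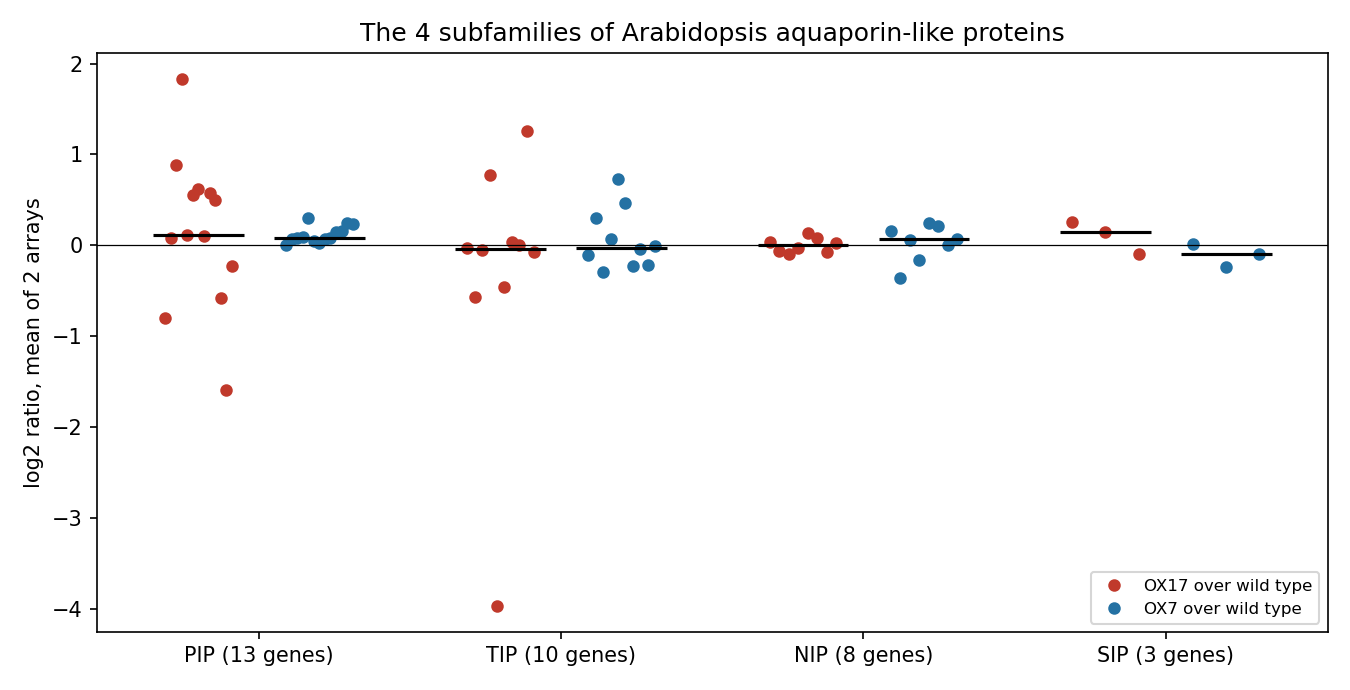
Mean log2 ratio of the 2 arrays for each gene of the PIP (13 genes), TIP (10), NIP (8) and SIP (3) subfamilies, OX17 in red at the left and OX7 in blue at the right of each pair, with black bars at the medians. OX17 points of the PIP and TIP subfamilies reach from -1.59 to 1.83 and from -3.97 to 1.26, and the NIP and SIP points of OX17 stay between -0.10 and 0.25.

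PIP proteins are also set by delivery, phosphorylation and breakdown, and 11 genes of known PIP partners were taken as a list. Their median log2 ratio was 0.16. On all 4 arrays 3 stood above wild type, where 12.4% of all genes did, and 1 stood below it, where 12.2% did. TSPO and BCA4, each with a flagged spot on 1 array, could not enter these counts. In the limma test 0 passed (lowest adjusted p = 0.846). The ubiquitin ligase gene RMA3, of the RMA family whose member RMA1 acts on PIP2 proteins, had log2 ratios of 1.02 and 0.77 on the OX17 arrays, against 0.29 and 0.32 on the OX7 arrays. UBC32, a ubiquitin-conjugating enzyme of the endoplasmic reticulum, had 0.95 and 1.12 on the OX17 arrays, against 0.09 and 0.15 on the OX7 arrays. Taking OX17 arrays minus OX7 arrays, RMA3 differed by -0.31 in the transformant channel and by -0.90 in the wild-type channel. For UBC32 these differences were 0.95 and 0.04. RMA2 was lower on all 4 arrays, with -0.55 and -0.42 on the OX17 arrays, against -0.41 and -0.25 on the OX7 arrays. The carbonic anhydrase gene BCA4, whose protein binds PIP2A, had -1.12 and -0.99 on the OX17 arrays, against -0.01 on the single unflagged OX7 array. Unadjusted limma p-values were under 0.05 for 2 of the 11, RMA2 and TSPO, where 4.38% of all genes were. Both had an adjusted p = 0.846. TSPO is an abscisic acid-induced membrane protein that directs PIP3 to breakdown. TSPO, named after its values were seen, had 0.99 and 0.37 on the OX17 arrays, against 0.36 on the single unflagged OX7 array.

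Between 86.4% and 95.9% of gene probes were well above background in the TaSK5 channels and between 88.9% and 96.0% in the wild-type channels. Precision is limited by having 2 transformants, each read on 2 arrays. All 4 mesophyll markers were well above background in all 8 channels, and 3 of them, RBCS1A, CAB3 and RCA, were saturated on each array. The 3 root markers and the flower marker AP3 were also well above background in all 8 channels, and the flower markers PI and AG in 3 of 4 TaSK5 and 4 of 4 wild-type channels. Presence above background therefore does not tell leaf from root or flower here. Vein markers, given because PIP2E is a vein isoform, had means from -0.22 to -0.04, and guard cell markers from -0.39 to -0.09. In OX17 the vein markers had a median of -0.20 and the guard cell markers one of -0.21, against -0.14 and -0.05 in OX7. Their part in the PIP values was not tested, and in whole leaves fewer cells of a type and less RNA per cell cannot be told apart.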

How the data were processed

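Leaf RNA of OX17, OX7 and wild type was read on 4 two-colour Agilent arrays, each its own slide. Per the labels, dye was incorporated while amplifying 500 ng of RNA. The deposited scanner files give spot and local background intensity in Cy3 and Cy5, read with Agilent Feature Extraction 7.5.1 per the file headers, together with a log10 ratio (Cy5 over Cy3) that the program computed. The authors deposited processed log2 ratios of Cy5 over Cy3. The submitters' processing notes name limma, whose settings were not given in the sources used here. These columns correlated with the loess ratios at r of 0.992 or more, with medians of -0.0054 and 0.0049 (OX17) and -0.0041 and 0.0036 (OX7).

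Here limma 3.58.1 (R 4.3.3) was run on the intensities: normexp background correction with offset 50, loess within arrays with 1075 control spots at weight 0, spots flagged as outliers left out, and ratios turned to TaSK5 over wild type. Because loess centres ratios on 0 along the brightness scale, a shift common to most bright genes is removed. Genes well above background in all 4 TaSK5 or all 4 wild-type channels and measured in both transformants were kept (18854). Ratios were averaged over the 2 arrays of each transformant, and both means were tested against 0 with lmFit and eBayes (two-sided, Benjamini-Hochberg over all genes kept). Channel signals came from Aquantile scaling after loess. The steps were tested on simulated data with known folds. A replicate number gives only the dye orientation and pairs no plants. Names are from the gene table of assembly TAIR10.1, which matched 21191 of 21500 probes. Coordinates are left out since the probes' build is not stated.

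Members, lists and the 1.5-fold limit were chosen with earlier results of these data known. All PIP loci were named, plus the 2 highest and 2 lowest genes of each other list and the 3 genes nearest to the lowest and to the highest PIP gene. Alternatives covered background, normalisation, filters, starting values, fits and leaving out each array.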

Additional observations from a re-analysis of the deposited data

Results flagged for a closer look

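In 2 of the 10 PIP genes and 1 further PIP locus, both OX17 arrays lay below wild type and both OX7 arrays above it. The difference, OX17 minus OX7, was -1.84 for PIP3, -0.75 for PIP1D and -0.47 for PIP2F on the log2 scale. With loess the same pattern was found in 9.33% of all genes, and the reverse pattern in 7.99% of all genes and 0 of the 10. Under median centring the pattern was lost for PIP3, with -0.17 and 0.04 on the OX7 arrays, and for PIP1D, which was lower on all 4 arrays. PIP2F lost it without background correction, with 0.00053 on the OX17 array 2. With 1 plant on each side the difference was not tested. Groups of 2 arrays allowed no check for single outlying arrays.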

How the results depend on the processing

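Under all 16 alternatives 0 of the 10 PIP genes passed the limma test. The lowest adjusted p was 0.27 (PIP1E), from the limma fit with the 4 arrays taken as independent, against 0.846 for PIP1E in the reported fit. Over all genes, 79 were called with the 4 arrays taken as independent and 1 with the replicate number as a block for dye orientation, where repeat hybridisations stand for plants, against 0 in the reported fit. At an unadjusted p under 0.05 there were 2881 and 2372 in these fits, 1375 with median centring and 1452 with scaling between arrays, against 825. Replicate numbers mark dye orientation, so the replicate block pairs no plants, and it changed no call of a PIP gene. With median centring the median over the 10 moved to -0.032, 2 were lower and 0 higher on all 4 arrays, and PIP1A (-0.018), PIP1B (-0.047) and PIP2E (-0.12) changed sign. The count higher on all 4 was 2 without background correction, and 0 with normexp at offset 0 and with the authors' log2 ratios. At least 1.5-fold apart between transformants were 2 genes with scaling between arrays, 4 without background correction and with median centring, and 7 with the authors' log2 ratios, against 5. Shares over all genes are given for the reported processing only, so the direction counts under the alternatives have none beside them. Leaving out 1 array gave 1 to 6 genes higher and 0 to 1 lower on the arrays left, and medians from 0.18 to 0.35. The same step moved PIP3B between -0.13 and 0.29, below 0 at -0.013 without OX7 replicate 2 and at -0.13 without OX17 replicate 2. It moved PIP2F, at 0.0010 with all arrays, between -0.089 (without OX17 replicate 2) and 0.091, with -0.018 without OX7 replicate 1. With Agilent log ratios PIP2F turned to -0.075 and PIP2D to -0.0036. The cause of these changes was not tested. A left-out array also leaves a dye effect uncancelled. The genes that changed sign outside median centring had the dimmest PIP spots, at brightness percentiles of 6.16 (PIP3B), 8.48 (PIP2D) and 31.2 (PIP2F).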

Other observations

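Beside BCA4, the leaf carbonic anhydrase gene CA1, taken here as a mesophyll marker, had log2 ratios of -2.42 and -2.20 on the OX17 arrays, against -0.51 and -0.13 on the OX7 arrays. It was the only one of the 4 mesophyll markers with no saturated spot and the only one lower on all 4 arrays, with a mean of -1.32 ± 1.41 (SD, n = 2 transformants), and it did not pass the limma test (adjusted p = 0.846). Both carbonic anhydrases supply carbon dioxide and bicarbonate interconversion in the leaf.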
